A study of Homo sapiens with 4 samples.

Results

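The mRNAs of the DEAD and DEAH box RNA helicases were compared between RNA recovered with the m6A demethylase ALKBH5 and input RNA. ALKBH5 removes the methyl group of N6-methyladenosine (m6A), an internal mark of mRNA. The members are the rows of the expression table whose symbol is DDX or DHX followed by a number and at most 1 letter. DDX39A, DDX39B and the Y-linked DDX3Y were left out, which gave 52 of 26830 rows, 37 with a DDX and 15 with a DHX symbol. All libraries came from NOMO-1, an acute myeloid leukaemia cell line, in which a lentivirus overexpressed ALKBH5 with a 3xFlag tag, and the cells had been crosslinked with UV light. The groups were input RNA with no antibody (2 libraries, input 1 and input 3) and RNA pulled down with an anti-Flag antibody (2 libraries, Flag-IP 1 and Flag-IP 3). The tag and the overexpression are shared by both groups, and no pull-down from untagged cells was analysed here, so the background of the pull-down was not measured. No label names separate cultures behind the libraries of 1 group, so p-values here reflect only how far these libraries differ, which may be technical. NOMO-1 is a single cell line.

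RNA helicases of these families use ATP to open short RNA duplexes or to strip proteins from RNA. The families are named for the residues of their motif II, aspartate, glutamate, alanine and aspartate in DEAD box proteins, with histidine in the last place in DEAH box proteins. Nuclear members drive the conformational steps of splicing and of ribosome assembly, and cytoplasmic members act in translation, mRNA storage, mRNA decay and the sensing of viral RNA. Myeloid leukaemia is known for mutations in DDX41, a spliceosomal member.

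The coding sequence of motif II is shown for 9 members described below, because the motif gives both families their names and the rule used only the symbols. A script searched the translated coding sequence of 51 members, leaving out the pseudogene DDX12P, for the motif and close variants of its last residues downstream of a nucleotide-binding motif. The result was DEAD in 27, DEAH in 7, a variant in 13 and no single match in 4. A symbol thus does not fix the residues, and DHX9, DHX34 and DDX21 are shown as variants. The sequences are coding-strand bases of GENCODE 29 transcripts on GRCh38, 36 bases each, and the capitals mark the 4 codons of the motif. They lie at chr17:64503233-64503268 (minus strand) for DDX5, chr22:38494931-38494966 (minus) for DDX17, chrX:41345181-41345216 (plus) for DDX3X, chr5:177513730-177513765 (minus) for DDX41, chr4:24556311-24556346 (minus) for DHX15 chr20:38992357-38992392 (plus) for DHX35, chr1:182867005-182867040 (plus) for DHX9, chr19:47355156-47355191 (plus) for DHX34 and chr10:68967116-68967151 (plus) for DDX21, in each case in 1 coding exon.
DDX5: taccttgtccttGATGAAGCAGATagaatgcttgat
DDX17: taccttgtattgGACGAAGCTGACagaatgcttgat
DDX3X: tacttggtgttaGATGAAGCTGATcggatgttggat
DDX41: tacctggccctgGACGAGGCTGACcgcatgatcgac
DHX15: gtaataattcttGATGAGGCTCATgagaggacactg
DHX35: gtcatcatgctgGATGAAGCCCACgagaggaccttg
DHX9: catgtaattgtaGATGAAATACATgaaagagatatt
DHX34: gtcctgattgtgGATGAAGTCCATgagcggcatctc
DDX21: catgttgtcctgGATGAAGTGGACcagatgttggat

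Levels are given in TPM, a relative transcript abundance corrected for transcript length that sums to 1000000 in each library. TPM keeps no read depth, so no counting error can be given, and most helicase mRNAs were at only a few TPM. Structural RNAs such as ribosomal RNA took 96.3% to 96.8% of input and 92.5% to 93.6% of Flag-IP, and the median tested gene was 2.38 times higher in Flag-IP as deposited. Differences are therefore also given relative to the typical gene, with each library divided by its median ratio to the genes' geometric means (the median-ratio scale). Of 9 myeloid marker genes 5 reached a mean of 1 TPM in input, while CD14 was listed at 0. Their summed level was 58.7 and 69.6 TPM in input and 110 and 106 TPM in Flag-IP. Of 17 markers of other cell types 12 were listed at 0 in both inputs, and NKG7 alone reached 1 TPM in input (13.3 TPM). Those markers summed to 12.1 and 14.9 TPM in input and 22.4 and 24.2 TPM in Flag-IP.

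The 52 helicase rows together held 68.3 and 81.1 TPM in the inputs and 268 and 212 TPM in the Flag-IP libraries. Of these rows 49 were above 0 in at least 1 library, and 39 had a mean of at least 1 TPM over the 4 libraries and were tested with limma on log2(TPM + 1). Of the 39, 15 had an input mean under 1 TPM and passed the filter through Flag-IP. The 1 TPM added before the log shrinks the log2 differences of such low mRNAs more than those of abundant ones. Ranks of genes by that difference thus depend in part on their level. On the deposited scale all 39 tested helicase mRNAs were higher in Flag-IP (limma adjusted p below 0.05) and none was lower, where 86.6% of all 6487 tested genes were higher and 0.740% lower. Both pull-downs exceeded both inputs for all 39, where 93.1% of tested genes did so and 1.09% did the opposite. Relative to the typical gene 18 were higher and 1 was lower, and 20 did not pass, where 22.3% of all tested genes were higher and 18.6% lower. The median difference over the 39 was 0.30 on the log2 scale, against -0.01 over all tested genes. On that scale the pull-downs did not overlap the inputs and were above them for 24 of the 39 and below them for 6, where 37.0% of all tested genes were above and 37.1% below.

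Because the filter keeps a low mRNA if it is high in Flag-IP, the same was counted without it. Over the 49 helicase rows above 0, 13 were higher and 1 lower in limma relative to the typical gene, where 8.86% and 5.45% of 15678 genes were, with a median of 0.21. As deposited, 46 of the 49 were then higher and none lower, where 49.1% and 0.223% of genes were. Among the 24 members with an input mean of at least 1 TPM, 11 were higher and 1 lower, where 18.3% and 15.1% of 4299 genes were, with a median of 0.32; this filter was chosen after seeing the data. Rescaling that ignores structural RNAs gave 23 higher and 0 lower helicase mRNAs, where 31.4% and 10.1% of tested genes were, and it moved the median over all tested genes to 0.16. Quantile scaling gave 13 and 1, where 19.2% and 18.8% were. 9 of the 18 higher calls were kept under every alternative processing in which the gene was tested. These were the calls of DDX5, DHX9, DDX11, DDX12P, DHX15, DHX29, DHX30, DHX34 and DHX35. Of these, DDX11, DDX12P, DHX29, DHX34 and DHX35 had input means of 0.395 to 0.625 TPM and passed the filter only through Flag-IP. These genes were not tested with a filter at an input mean of 1 TPM or at a mean of 5 TPM, so they faced fewer alternatives. The higher calls of other genes were not followed through every processing. The 9 of 18 kept thus have no share over all tested genes beside them. Without input 1, 11 helicase mRNAs were higher and 1 lower, where 17.5% and 12.8% of tested genes were. Without Flag-IP 1 the counts were 10 and 1, where 14.8% and 9.05% of tested genes were. Without input 3 they were 13 and 0 (17.4% and 12.9% of tested genes), and without Flag-IP 3 they were 13 and 1 (15.7% and 12.9%). So fewer genes passed over the whole table too. With a filter at a mean of 5 TPM, 7 of 8 members were higher and none lower, where 25.5% and 23.1% of 1539 genes were. That filter too uses the mean over all 4 libraries. Of these 8 only DDX17 had an input mean of at least 5 TPM (5.705 TPM), and the others passed through Flag-IP.

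**Figure D1:**
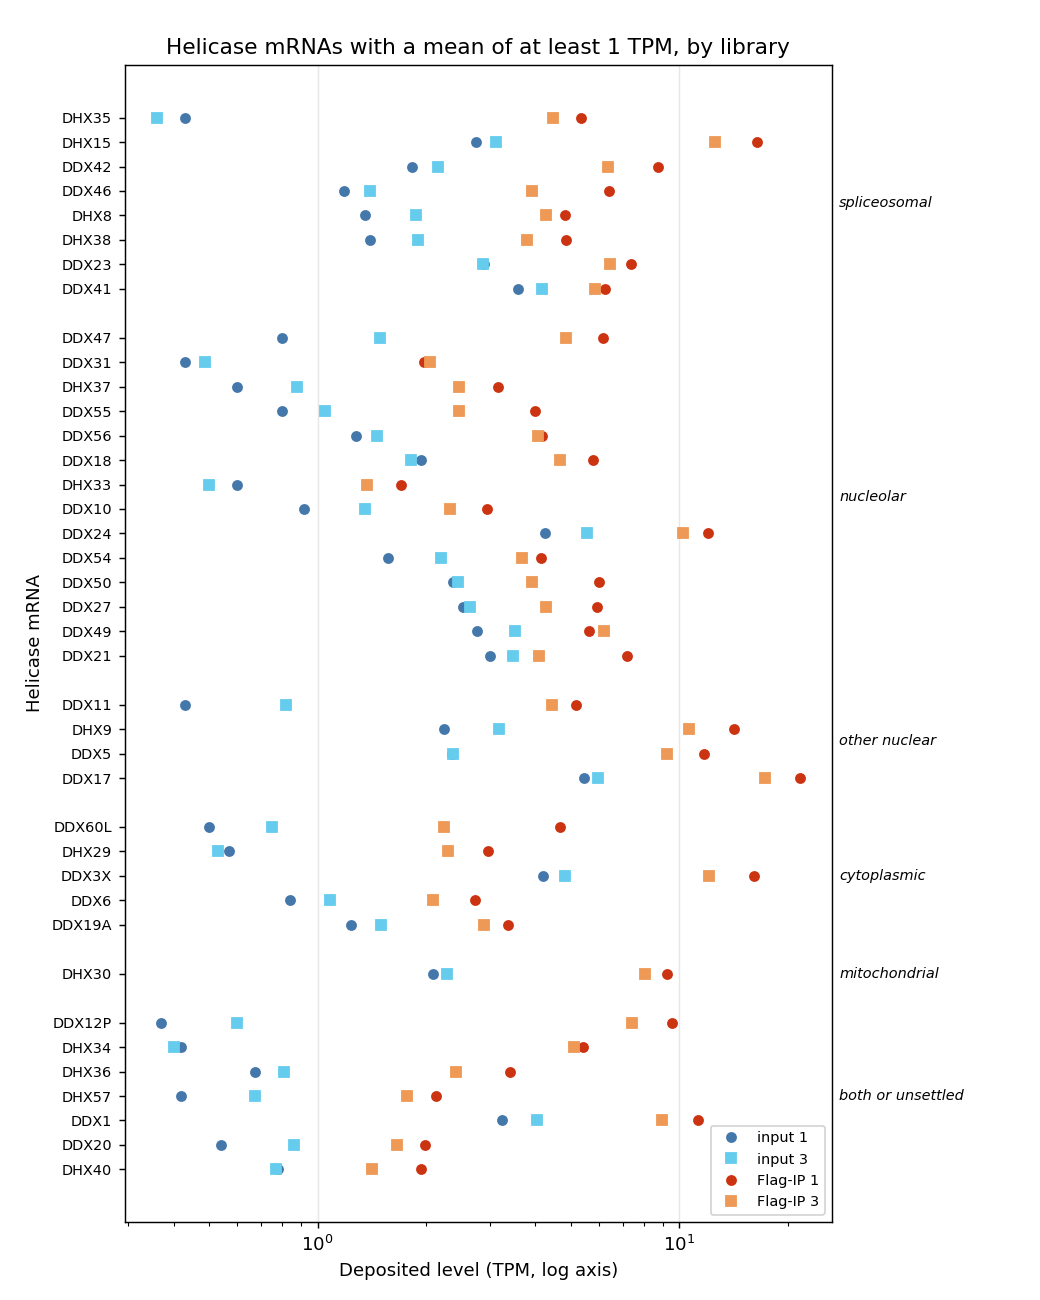
Deposited level in TPM (horizontal log axis) of the 39 helicase mRNAs with a mean of at least 1 TPM, 1 line per gene, grouped by class. Blue points are the 2 inputs and red points the 2 Flag-IP libraries, and a square can cover a circle where values coincide; both Flag-IP points lie to the right of both input points on every line.

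Helicases of the nucleus outside the nucleolus and the spliceosome were the class with the highest median among those with more than 1 tested member. All 4 were higher relative to the typical gene, where 22.3% of all tested genes were, with a class median of 0.76 (log2). With the length trend removed 3 of the 4 were higher, where 17.0% of tested genes were. DDX5 and DDX17 are paralogues that act in splicing, transcription and microRNA processing. DDX17 (chromosome 22, 38483440 to 38507660, minus strand, GRCh38) was at 5.46 and 5.95 TPM in input and 21.51 and 17.24 TPM in Flag-IP. It was the most abundant helicase mRNA of the set in every library. DDX5 (chromosome 17, 64499616 to 64508199, minus strand) was at 2.35 and 2.37 TPM in input and 11.72 and 9.24 TPM in Flag-IP. In both genes the groups lay far apart as deposited, where both pull-downs exceeded both inputs for 93.1% of tested genes. Flag-IP 1 was the higher of the 2 pull-downs as deposited. After median-ratio scaling the pull-downs were close, at 6.79 and 6.60 TPM for DDX5 and 12.5 and 12.3 TPM for DDX17. Relative to the typical gene DDX5 was higher by 0.73 ± 0.11 (log2 ± SE, limma adjusted p = 0.00437) and DDX17 by 0.45 ± 0.10 (adjusted p = 0.0156). Only the DDX5 call held with the length trend removed (0.74, adjusted p = 0.00559); DDX17 was then at 0.24 (adjusted p = 0.12). DDX17 also lost its call without input 1 (0.50, adjusted p = 0.051), input 3 (0.41, adjusted p = 0.089) or Flag-IP 1 (0.44, adjusted p = 0.057).

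DHX9, RNA helicase A, which opens duplexes in transcription and RNA processing, was at 2.23 and 3.17 TPM in input and 14.16 and 10.6 TPM in Flag-IP. Its groups were separated by more than their spread, and the difference relative to the typical gene was 0.80 ± 0.12 (limma adjusted p = 0.00483). DDX11, a DNA helicase of sister chromatid cohesion that carries the family symbol, was at 0.43 and 0.82 TPM in input and 5.18 and 4.45 TPM in Flag-IP (1.08 ± 0.14, limma adjusted p = 0.00284). Both Flag-IP values were more than 5 times the higher input. DDX11 passed the filter only through Flag-IP, at an input mean of 0.625 TPM.

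DDX12P, an unprocessed pseudogene copied from DDX11, had the largest difference of the 39. It was at 0.37 and 0.6 TPM in input and 9.51 and 7.41 TPM in Flag-IP, and the means differed 17.4-fold. Relative to the typical gene it was higher by 1.88 ± 0.11 (limma adjusted p = 0.000462). It passed the filter only through Flag-IP, at an input mean of 0.485 TPM. Without the filter it was at 1.86 (limma adjusted p = 0.00972). With 0.1 TPM added before the log in place of 1 TPM, it was at 2.73. DDX11 lies at 31073845 to 31104791 (plus strand) and DDX12P at 9418673 to 9448229 (minus strand), both on chromosome 12. Of the 50-base windows of the longest DDX12P transcript 43.8% also occur in a DDX11 transcript, and 29.2% of those of DDX11 occur in DDX12P. Reads from these windows cannot be assigned to 1 of the 2 loci, so the 2 levels are uncertain. Without DDX12P, 17 of 38 tested helicase mRNAs were higher, where 22.3% of all tested genes were, and the median over the 38 was 0.27.

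Spliceosomal helicases ran from -0.51 to 1.36 relative to the typical gene. Of 8 tested, 4 were higher, 1 was lower and 3 did not pass, with a median of 0.34. Over all tested genes 22.3% were higher and 18.6% lower. The higher and lower counts became 3 and 1 without the filter, where 8.86% and 5.45% of genes were called. They were 2 and 1 with the length trend removed, where 17.0% and 19.1% of tested genes were called, and the class median was then 0.08. DHX16 was not analysed here. DHX15, which takes spent spliceosomes apart and also acts in ribosome assembly, was at 2.74 and 3.12 TPM in input and 16.35 and 12.53 TPM in Flag-IP. The lower Flag-IP library was about 4 times the higher input, and the difference relative to the typical gene was 0.89 ± 0.10 (limma adjusted p = 0.00191). DHX35, found in catalytically active spliceosomes, went from 0.43 and 0.36 TPM in input to 5.35 and 4.48 TPM in Flag-IP. Its means had a ratio of 12.4, and it was higher by 1.36 ± 0.11 relative to the typical gene (limma adjusted p = 0.000856). With 0.1 TPM added before the log in place of 1 TPM, it was higher by 2.20. Only 1.96% of the tested set exceeded DHX35. Its input mean of 0.395 TPM let it into that set only through Flag-IP. Without the filter it was at 1.34 (limma adjusted p = 0.0124).

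DDX42 and DDX46, which work with SF3B1 at the branch point, were at 1.98 ± 0.233 and 1.29 ± 0.156 TPM in input and at 7.54 ± 1.68 and 5.14 ± 1.75 TPM in Flag-IP (mean ± SD, n = 2). They were higher by 0.51 ± 0.10 and 0.50 ± 0.13 relative to the typical gene (limma adjusted p = 0.0116 and 0.0273). Both lost the call with the length trend removed (0.34, adjusted p = 0.052, and 0.23, adjusted p = 0.21) and again when Flag-IP 1 was left out (0.44, adjusted p = 0.066, and 0.33, adjusted p = 0.13). DDX46 did so too without input 1 (0.51, adjusted p = 0.077) or input 3 (0.53, adjusted p = 0.073), without a filter (0.47, adjusted p = 0.084) and under quantile scaling (0.44, adjusted p = 0.052).

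The helicases of the later splicing steps, DHX38 before exon ligation and DHX8 at mRNA release, were at 0.09 and 0.18 relative to the typical gene, and DDX23, which acts in spliceosome activation, at -0.0048. None of these 3 passed (limma adjusted p = 0.51, 0.24 and 0.98). On the deposited scale they had ratios of 2.62, 2.83 and 2.40, near that of the median gene.

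DDX41 was the only one of the 39 helicase mRNAs that limma called lower relative to the typical gene, and DDX21, below, joined it with the length trend removed. Its deposited level still rose, from 3.58 and 4.17 TPM in input to 6.23 and 5.83 TPM in Flag-IP, which is 1.56-fold (0.53 ± 0.21 on the deposited log2 scale, limma adjusted p = 0.0161). Set against the typical gene, DDX41 differed by -0.51 ± 0.11 (limma adjusted p = 0.0130), and 87.1% of the tested set exceeded it. The call was lost without input 3 (-0.52, adjusted p = 0.050), without Flag-IP 1 (-0.41, adjusted p = 0.069) and under rescaling that ignores structural RNAs (-0.32, adjusted p = 0.053). The deposited call was lost without input 1 (0.44, adjusted p = 0.21), input 3 (0.62, adjusted p = 0.070) or Flag-IP 1 (0.49, adjusted p = 0.060).

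**Figure D2:**
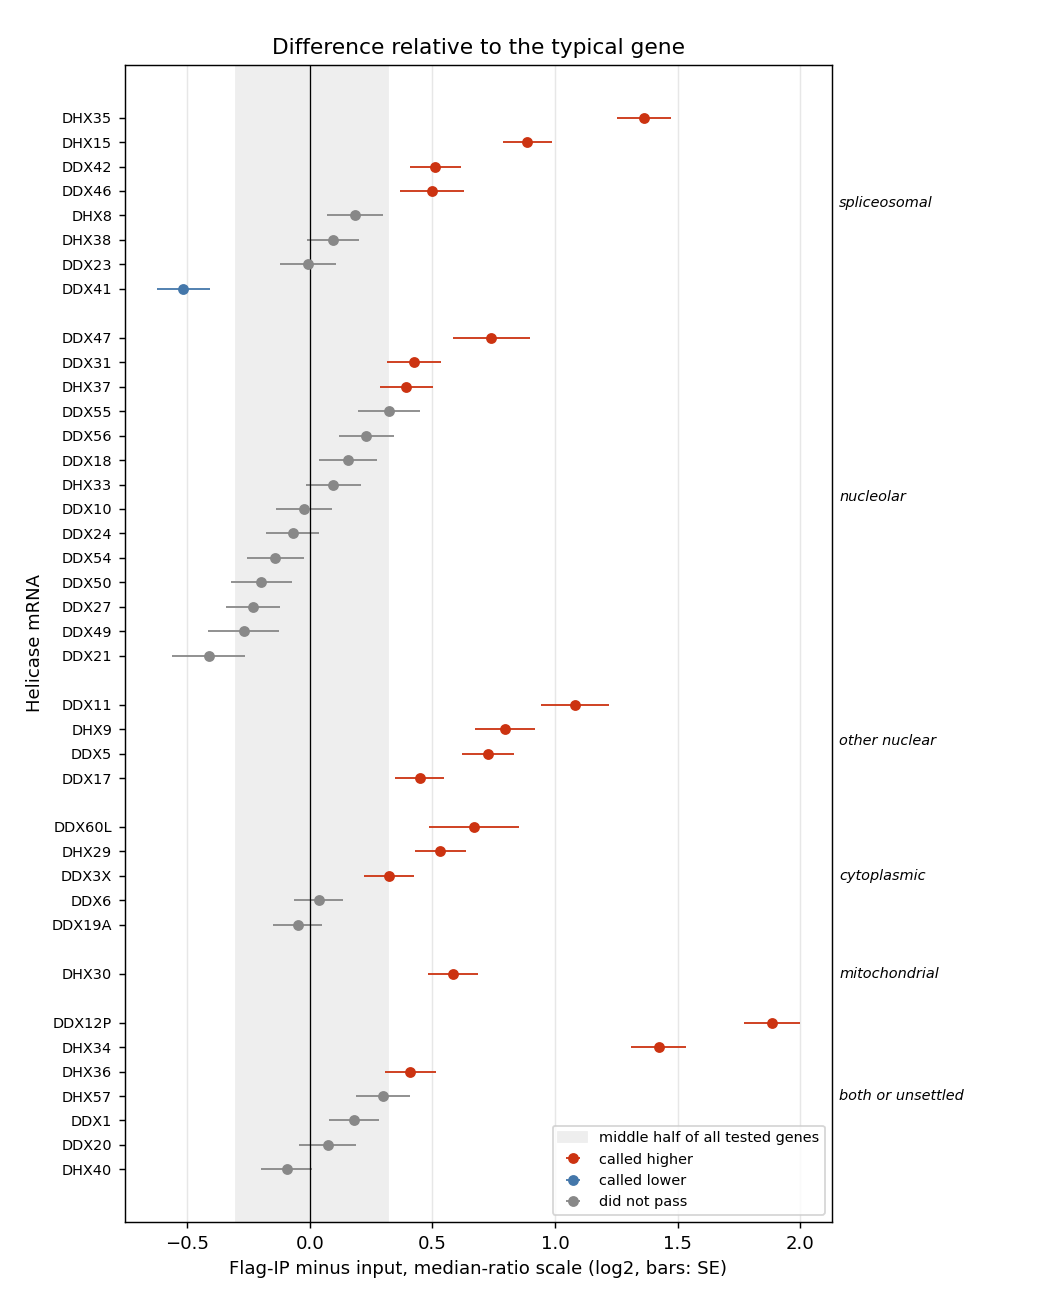
Flag-IP minus input on the median-ratio scale (horizontal axis, log2, bars are standard errors) for the 39 tested helicase mRNAs by class; colours give the limma call and the grey band spans the quartiles of all 6487 tested genes, from -0.30 to 0.32. The 4 other nuclear helicases lie right of the band, the nucleolar ones are mostly inside it, and DDX41 and DDX21 lie left of it.

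Nucleolar helicases, which remodel pre-ribosomal RNA, lay around the typical gene. Of 14 tested, 3 were higher, none was lower and 11 did not pass, with a median of 0.04. The higher share of 21.4% is near the 22.3% over all tested genes. Without the filter 1 of 16 was higher, where 8.86% of genes were. The most abundant was DDX24, at 4.25 and 5.56 TPM in input and 11.96 and 10.23 TPM in Flag-IP. Its ratio of 2.26 was close to that of the median gene, and its difference of -0.07 ± 0.11 did not pass (limma adjusted p = 0.64). DDX47, an rRNA processing factor, had the largest difference of the class, with 0.8 and 1.49 TPM in input and 6.14 and 4.87 TPM in Flag-IP (0.74 ± 0.16, limma adjusted p = 0.0134). It lost its call without Flag-IP 1 (0.69, adjusted p = 0.067), without Flag-IP 3 (0.73, adjusted p = 0.065) and without a filter (0.71, adjusted p = 0.060).

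DDX31 was at 0.43 and 0.49 TPM in input and 1.97 and 2.05 TPM in Flag-IP. DDX31 and DHX37, the latter a factor of small subunit assembly, were at 0.43 and 0.39 relative to the typical gene (limma adjusted p = 0.0255 and 0.0319). These calls were lost under 6 and 7 of 12 alternatives, among them no filter (0.41, adjusted p = 0.092, and 0.37, adjusted p = 0.094), length trend removal (0.23, adjusted p = 0.12, and 0.20, adjusted p = 0.18), quantile scaling (0.25, adjusted p = 0.13, and 0.28, adjusted p = 0.078) and leaving out input 1 (0.47, adjusted p = 0.060, and 0.32, adjusted p = 0.13) or Flag-IP 3 (0.31, adjusted p = 0.092, and 0.40, adjusted p = 0.098). DDX31 lost it also without input 3 (0.45, adjusted p = 0.073), and DHX37 without Flag-IP 1 (0.35, adjusted p = 0.12).

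DDX21 and its neighbour and paralogue DDX50 both act on ribosomal RNA. DDX21 was at 2.99 and 3.47 TPM in input and 7.14 and 4.1 TPM in Flag-IP, and DDX50 at 2.37 and 2.45 TPM and at 6 and 3.91 TPM. In both, Flag-IP 3 was well below Flag-IP 1. Relative to the typical gene DDX21 was at -0.41 ± 0.15 and DDX50 at -0.20 ± 0.12, and neither passed (limma adjusted p = 0.069 and 0.25). DDX21 passed as lower without Flag-IP 1 (-0.58, adjusted p = 0.0335) and with the length trend removed (-0.63, adjusted p = 0.0218). DDX49 was at 2.75 and 3.51 TPM in input and 5.64 and 6.2 TPM in Flag-IP (-0.27 ± 0.14, limma adjusted p = 0.18). DDX51 and DDX52 were under the filter.

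Of 9 cytoplasmic helicases 5 were tested, and 3 of them were higher, where 22.3% of all tested genes were, with a class median of 0.32. 3 of the 5 had an input mean under 1 TPM, and without the filter 2 of 9 were higher, where 8.86% of genes were. DDX3X, a factor of translation initiation, was at 4.21 and 4.82 TPM in input and 16.05 and 12.09 TPM in Flag-IP. The groups were well separated as deposited, while the difference relative to the typical gene was 0.32 ± 0.10 and just passed (limma adjusted p = 0.0458). That call was lost without any 1 of the 4 libraries (0.28 to 0.37, adjusted p = 0.075 to 0.16), without a filter (0.29, adjusted p = 0.085) and with the length trend removed (0.01, adjusted p = 0.94). DHX29, which helps ribosomes scan structured leaders, was at 0.57 and 0.53 TPM in input and 2.96 and 2.3 TPM in Flag-IP (0.53 ± 0.10, limma adjusted p = 0.0104). DDX60L, an interferon-induced relative of DDX60, was at 0.5 and 0.75 TPM in input and 4.67 and 2.24 TPM in Flag-IP, the widest relative gap between pull-downs among the higher members of this class. It was higher by 0.67 ± 0.18 (limma adjusted p = 0.0305), and not so without input 1 (0.62, adjusted p = 0.087), without Flag-IP 1 (0.39, adjusted p = 0.090), without a filter (0.64, adjusted p = 0.11), under quantile scaling (0.55, adjusted p = 0.065) or with the length trend removed (0.36, adjusted p = 0.16). Its input mean of 0.625 TPM let it pass the filter only through Flag-IP.

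DDX6, a repressor of translation that promotes decapping, was at 0.04 ± 0.10 and DDX19A, an export factor at the nuclear pore, at -0.05 ± 0.10 (limma adjusted p = 0.79 and 0.72). DDX19A stood at 1.24 and 1.5 TPM in input and 3.37 and 2.88 TPM in Flag-IP. Its neighbour DDX19B, under the filter, was at 0.68 and 0.91 TPM and at 0.88 and 1.32 TPM, the only helicase row above 0 whose groups overlapped as deposited. Of the 50-base windows of the longest transcripts, 13.1% of those of DDX19A occur in DDX19B and 21.2% of those of DDX19B in DDX19A, so reads can be split between the 2 genes and both levels are uncertain. The sensors of viral RNA DDX58 (RIG-I), DHX58 and DDX60 were also under the filter, at input means of 0.215, 0.115 and 0.230 TPM and Flag-IP means of 0.905, 0.830 and 1.23 TPM.

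The ranges of nuclear and cytoplasmic helicases overlapped, from -0.51 to 1.36 and from -0.05 to 0.67 relative to the typical gene. Of 26 tested nuclear members 11 were higher and 1 lower, with a median of 0.21, and of 5 cytoplasmic members 3 were higher and none lower, with a median of 0.32. Over all tested genes 22.3% were higher and 18.6% lower. Without the filter 8 of 28 nuclear and 2 of 9 cytoplasmic members were higher, where 8.86% of genes were. The nuclear median was lower by 0.12, and over the 4 pairs of 1 Flag-IP and 1 input library this difference ran from -0.15 to 0.01. With the nucleolar members left out, the nuclear median was 0.51 over 12 members, of which 8 were higher and 1 was lower. With DHX34 and DHX36 counted as cytoplasmic, that median was 0.41. The sign of the difference turned with the length trend removed, where the nuclear median was 0.12 and the cytoplasmic median 0.01. With 5 cytoplasmic members, 3 of them with an input mean under 1 TPM, no order of the 2 classes can be read from these data, and the comparison was not tested.

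**Figure D3:**
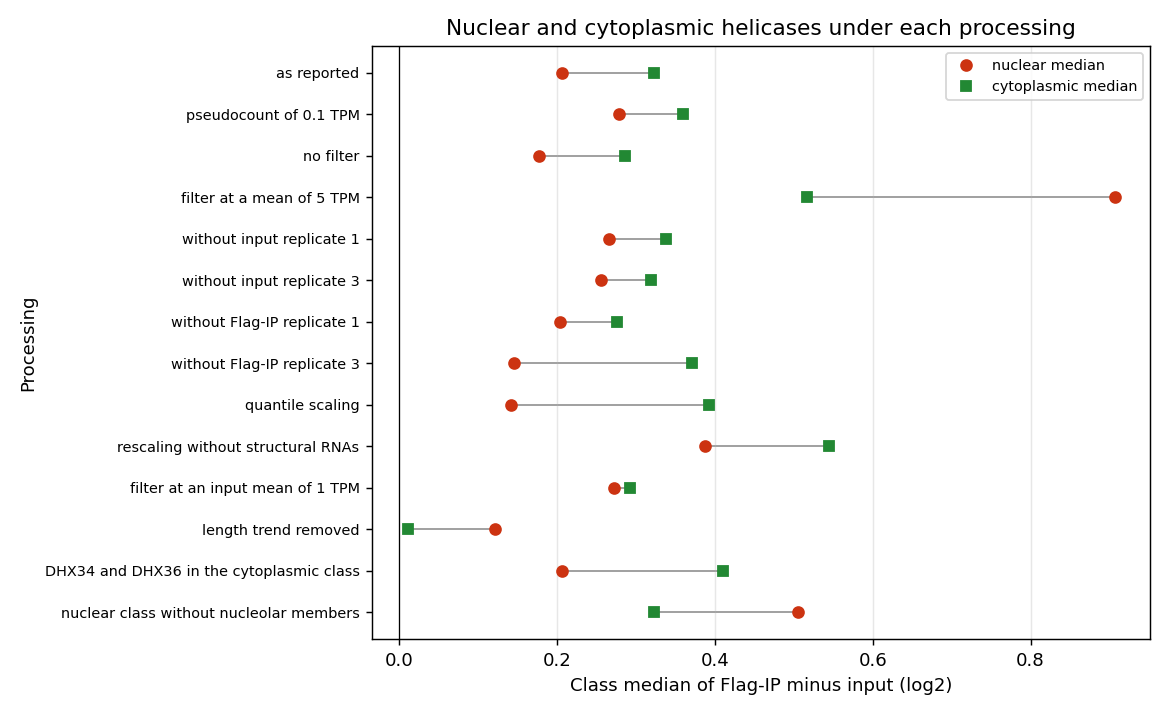
Median difference between Flag-IP and input (horizontal axis, log2) of the nuclear helicases (red circles) and the cytoplasmic helicases (green squares) under each processing listed on the vertical axis. The cytoplasmic median is to the right in most lines and to the left with the length trend removed, with a filter at a mean of 5 TPM (5 nuclear and 1 cytoplasmic member) and without the nucleolar members.

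Of the helicases placed in both compartments or not settled, DDX12P among them, 3 of 7 tested were higher, where 22.3% of all tested genes were. 6 of these 7 had an input mean under 1 TPM, and without the filter 2 of 9 were higher, where 8.86% of genes were. DHX34, which acts in nonsense-mediated decay, was at 0.42 and 0.4 TPM in input and 5.43 and 5.1 TPM in Flag-IP, or 12.8-fold between the means. The libraries of each group lay close together. DHX34 (chromosome 19, 47349281 to 47382704, plus strand) was higher by 1.42 ± 0.11 relative to the typical gene (limma adjusted p = 0.000824). Only 1.74% of the tested set exceeded it. It passed the filter only through Flag-IP, at an input mean of 0.41 TPM. Without the filter it was at 1.40 (limma adjusted p = 0.0124). With 0.1 TPM added before the log in place of 1 TPM, it was at 2.25. DHX36, which unwinds G-quadruplexes, was at 0.67 and 0.81 TPM in input and 3.4 and 2.41 TPM in Flag-IP (0.41 ± 0.10, limma adjusted p = 0.0230). Its call was lost without any 1 of the libraries (0.33 to 0.46, adjusted p = 0.054 to 0.11), without a filter (0.39, adjusted p = 0.068), under quantile scaling (0.30, adjusted p = 0.058) and with the length trend removed (0.11, adjusted p = 0.43).

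DDX1, of the tRNA ligase complex, was at 3.23 and 4.03 TPM in input and 11.22 and 8.97 TPM in Flag-IP, and at 0.18 ± 0.10 relative to the typical gene it did not pass (limma adjusted p = 0.19). It passed under rescaling that ignores structural RNAs (0.39, adjusted p = 0.0279), and with a filter at a mean of 5 TPM (0.37, adjusted p = 0.0301) or at an input mean of 1 TPM (0.35, adjusted p = 0.0383). DDX20 of the SMN complex, DHX40 and DHX57 did not pass either, at 0.07, -0.09 and 0.30. DHX30, a factor of mitochondrial ribosome assembly, was at 2.09 and 2.28 TPM in input and 9.26 and 8.05 TPM in Flag-IP, a tight pair in each group, and was higher by 0.58 ± 0.10 (limma adjusted p = 0.00733).

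13 helicase rows were under the filter. DDX25, DDX43 and DDX53, genes of the germline, were listed at 0 in all 4 libraries, and DDX4 reached at most 0.04 TPM. Besides DDX19B, DDX51, DDX52, DDX58, DDX60 and DHX58, these were DDX28, DDX59 and DHX32, at input means of 0.280, 0.320 and 0.380 TPM and Flag-IP means of 0.830, 1.18 and 1.14 TPM. Without the filter, limma called DDX51 (0.38, adjusted p = 0.046) and DHX58 (0.36, adjusted p = 0.038) higher relative to the typical gene.

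Of the 39 tested helicases, 27 had a longest annotated transcript above the median over all tested genes and 12 did not. The longest annotated transcript had a median length of 4332 bases over the 39 tested members and of 3080 bases over the 6260 tested genes with an annotation. Across 5978 protein-coding genes the difference relative to the typical gene rose with that length (Spearman's rho 0.47), as it did with the number of exons (0.57). Across the 39 members the values were 0.03 and 0.34; genes share libraries and are not independent, so these are descriptions. With the trend of length over all tested genes removed, 10 helicase mRNAs were higher and 2 lower in limma, where 17.0% and 19.1% of tested genes were, and the median over the members was 0.11. DHX34, DHX35, DDX11 and DHX15 kept 1.25, 1.29, 0.97 and 0.85. The share of G and C and the density of GGACT, a common form of the m6A consensus, showed Spearman's rho of -0.01 and -0.04 with the difference over the members. GGACT was counted on the transcript strand, and occurred in 36 of the 39 longest transcripts, against 89.3% of tested genes, with a median of 0.703 and 0.933 sites per kilobase. An annotated transcript with a retained intron was present for 35 of the 39, against 64.7% of tested genes, and its number showed a rho of -0.03 with the difference over the members. Deposited values per gene do not show which transcripts were recovered. The input level showed a rho of -0.43 over the members and -0.54 over protein-coding genes. The input level is part of that difference, so the 2 are not independent.

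**Figure D4:**
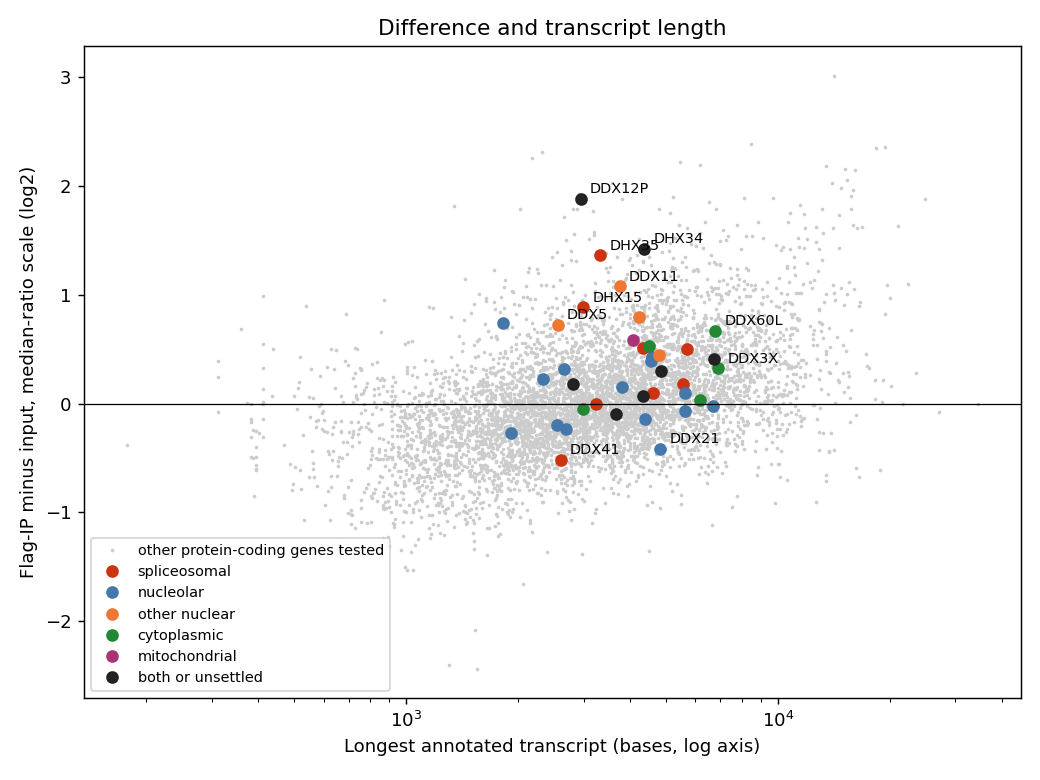
Flag-IP minus input on the median-ratio scale (vertical axis, log2) against the length of the longest annotated transcript (horizontal log axis, bases). Grey points are other tested protein-coding genes, which rise with length; coloured points are the 39 tested helicases by class, among which DDX12P, DHX34 and DHX35 are highest at intermediate lengths.

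RNA helicases outside the rule were counted the same way. Of 22 rows 19 were tested, 10 of which had an input mean under 1 TPM and passed the filter through Flag-IP. Of the 19, 12 were higher and none lower, where 22.3% and 18.6% of all tested genes were, with a median of 0.49. Without the filter 8 of 22 were higher, where 8.86% of genes were. With an input mean of at least 1 TPM 5 of 9 were higher, where 18.3% of genes were. With the length trend removed 6 of 18 were higher, where 17.0% of tested genes were, with a median of 0.17 over the list. EIF4A1, the helicase of cap-dependent initiation, was at 25.64 and 25.56 TPM in input and 53.95 and 44.78 TPM in Flag-IP, and at -0.31 ± 0.12 it did not pass (limma adjusted p = 0.076). Its paralogue EIF4A2 was at 5.61 and 6.43 TPM and at 25.22 and 18.03 TPM (0.52 ± 0.11, limma adjusted p = 0.0129). The estimates of these paralogues lay on either side of the typical gene, and the difference between them was not tested. IGHMBP2, at 0.53 and 0.5 TPM in input and 4.34 and 3.7 TPM in Flag-IP, had the largest difference of the list (0.99 ± 0.10, limma adjusted p = 0.00164). TDRD9 followed, at 0.45 and 0.43 TPM and at 3.92 and 3.13 TPM (0.95 ± 0.10, limma adjusted p = 0.00165). IGHMBP2 and TDRD9 passed the filter only through Flag-IP, at input means of 0.515 and 0.44 TPM. They were at 0.97 and 0.93 without it (limma adjusted p = 0.0147 for both).

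Some G-patch proteins activate DEAH box helicases, and some MIF4G domain proteins do so for DEAD box helicases. Of 17 tested G-patch genes 7 were higher and 3 lower, where 22.3% and 18.6% of all tested genes were, with a median of 0.18. 5 of the 17 had an input mean under 1 TPM. Without the filter 4 of 22 were higher and 3 lower, where 8.86% and 5.45% of genes were, with a median of 0.0044 over the list. RBM5, a splicing regulator, went from 1.12 and 1.61 TPM in input to 16.19 and 13.54 TPM in Flag-IP (1.77 ± 0.11, limma adjusted p = 0.000513), and SUGP2 from 1.81 and 2.15 TPM to 19.43 and 15.15 TPM (1.57 ± 0.10, limma adjusted p = 0.000486). In both genes each pull-down was at least 7 times either input. Of 10 tested MIF4G genes 3 were higher and 1 lower, where 22.3% and 18.6% of all tested genes were, with a median of 0.05. An input mean under 1 TPM was found for 3 of the 10. Over all 12 rows without the filter, 2 were higher and 1 lower, where 8.86% and 5.45% of genes were. With the length trend removed 1 was higher and 1 lower, where 17.0% and 19.1% of tested genes were, with a median of -0.07 over the list. EIF4G1, the scaffold of EIF4A1, was at 6.96 and 9.11 TPM in input and 27.28 and 22.15 TPM in Flag-IP (0.34 ± 0.11, limma adjusted p = 0.0487; 0.07, adjusted p = 0.62, with the length trend removed). CNOT1, which binds DDX6, was at 4.23 and 4.49 TPM and at 18.31 and 13.89 TPM (0.54 ± 0.11, limma adjusted p = 0.0102; 0.17, adjusted p = 0.27, with the length trend removed). EIF4G3, at 1.53 TPM in both inputs and 7.39 and 6.14 TPM in Flag-IP, was higher (0.66 ± 0.11, limma adjusted p = 0.00574). EIF4G2, at 8.08 and 9.29 TPM in input and 18.73 and 14.36 TPM in Flag-IP, was lower relative to the typical gene (-0.32 ± 0.10, limma adjusted p = 0.0467).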

How the data were processed

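According to the processing notes of the submitters, STAR aligned the reads to GRCh38 and RSEM quantified them; the sources used here give no versions and no annotation. What the authors deposited is 1 TPM value per gene symbol and library. Symbols were matched to GENCODE 29 for positions, lengths and transcripts (all 52 helicase rows matched). After a filter at a mean of 1 TPM over the 4 libraries, log2(TPM + 1) entered limma 3.58.1 in R 4.3.3 (trend, two-sided, Benjamini-Hochberg over 6487 genes, adjusted p below 0.05), as deposited and after median-ratio scaling. limma's prior degrees of freedom came out infinite as deposited, where p-values may be too small, and 4.02 on the other scale. The scripts were tested on simulated data. Members, classes and lists were chosen with earlier results of these data known. Values per library are given for the 2 most abundant and the 2 most changed tested members of each class, the paralogue pairs and DDX3X, and likewise per list; DHX36 and the members under the filter were added for completeness, and calls lost under an alternative were named after their values were seen. Classes and lists are described by counts and medians, without a test. Alternatives were a pseudocount of 0.1 TPM, other filters, quantile scaling, rescaling without structural RNAs, removal of the length trend (loess, span 0.5, over all tested genes with a length), no trend, the replicate number as a block, and each library left out; with 1 library left out, the lone library is assumed to vary like the other group.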

Additional observations from a re-analysis of the deposited data

How the results depend on the processing

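The 18 higher and 1 lower helicase calls relative to the typical gene became 7 and 0 with a filter at a mean of 5 TPM (8 members tested, all 8 higher as deposited), 11 and 1 with a filter at an input mean of 1 TPM, and 10 and 2 with the length trend removed, while rescaling without structural RNAs left 0 lower. With each library left out in turn they numbered 10 to 13 and 0 to 1. Same-numbered libraries did not deviate together (correlation -0.19 relative to the typical gene, -0.17 as deposited). The replicate block gave 16 higher and 1 lower, and 37 higher as deposited; it ended the calls of DDX3X (adjusted p = 0.079), DHX37 (adjusted p = 0.052) and, as deposited, DDX21 (adjusted p = 0.065) and DDX41 (adjusted p = 0.11). Crossed numbers, added after seeing the data, gave 17, 1 and 39. Shares over all tested genes were not counted for the block or the crossed numbers, so these counts have no background.
The nuclear median of 0.21 became 0.28 with a pseudocount of 0.1 TPM, 0.18 without a filter, 0.91 with the filter at 5 TPM, 0.14 with quantile scaling, 0.39 without structural RNAs, 0.27 with the input filter, 0.12 with the length trend removed, 1.10 as deposited and 0.51 without nucleolar members; left-out libraries gave 0.15 to 0.27. The cytoplasmic median of 0.32 became 0.52 with the filter at 5 TPM, 0.39 with quantile scaling, 0.54 without structural RNAs, 0.011 with the length trend removed, 1.22 as deposited and 0.41 with DHX34 and DHX36. Their difference of -0.12 turned to 0.39 with the filter at 5 TPM, 0.11 with the length trend removed and 0.18 without nucleolar members, and moved to -0.25 with quantile scaling, -0.020 with the input filter and -0.20 with DHX34 and DHX36; left-out libraries gave -0.23 to -0.063. DDX19A, at -0.05, turned to 0.12 without structural RNAs and 0.085 with the input filter. DDX24, at -0.07, turned to 0.12 with the filter at 5 TPM, 0.061 with quantile scaling, 0.15 without structural RNAs and 0.11 with the input filter, and ran from -0.15 to 0.0076 with libraries left out. None of these values of DDX19A and DDX24 passed the test, and the cause of the changes was not tested. With 2 libraries a group and no read depth, counting error in mRNAs of a few TPM could not be assessed.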
